A study of Mus musculus with 18 samples.

Results

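Titin, Z-disc and stretch-sensing genes were followed in ventricular RNA of 18 mouse hearts transduced with 1 of 3 recombinant adeno-associated viruses of serotype 6 (rAAV6). The 9 genes, Ttn, Nebl, Actn2, Ldb3, Tcap, Csrp3, Myoz2, Ankrd1 and Fhl2, were chosen by name, as sarcomere and mechanosensing genes, from the 23457 genes of the count table, and all 9 were among the 12281 genes that passed the filter on low counts. All hearts came from male C57BL/6 mice aged 17 weeks, with 6 hearts for each vector. rAAV6-PLCβ1b carried a FLAG-tagged PLCβ1b, the splice variant of phospholipase Cβ1 that the study connects with low contractility. rAAV6-PLCβ1a carried FLAG-tagged PLCβ1a, the splice variant that the study describes as inactive in heart. rAAV6-blank had a promoter without a protein product, so the control hearts were transduced as well. The virus was given through the tail vein to adult mice and not to 1 cell type. The labels name both ventricles as the tissue and the study's methods name the left ventricle.

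The sarcomere is bounded by Z-discs, in which α-actinin cross-links actin filaments of opposite polarity. Titin, the largest known protein, runs from the Z-disc to the M-band and acts as a molecular spring. Its end at the Z-disc is held by telethonin, the product of Tcap, which also binds muscle LIM protein, the product of Csrp3. Ankrd1 and Fhl2 products bind the spring region of titin and are also found in the nucleus, and Ankrd1 is a widely used marker of load on the myocardium.

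The libraries held 13246341 to 24155485 counts on genes per heart, of which 67.1 to 71.9% lay on the 37 mitochondrial genes, leaving 3908354 to 7591558 counts on nuclear genes. Ttn alone took 10.5 to 11.7% of those nuclear counts, and mt-Rnr2, a mitochondrial ribosomal RNA, took 53.5 to 57.5% of all counts. Plcb1, whose counts do not separate the 2 splice variants, was higher than in blank hearts by 2.90 on the log2 scale in PLCβ1b hearts and by 1.82 in PLCβ1a hearts (FDR 8.2e-05 and 0.030), without overlap between the groups in either comparison. The 6 cardiomyocyte markers listed (Myh6, Actc1, Tnnt2, Tnni3, Ryr2 and Pln) were abundant in every heart, summing to 17562 to 19297 CPM (counts scaled to library size) over the 18 hearts. Of 7 skeletal muscle markers only Ckm, which heart muscle also expresses, passed the filter on low counts, and the other 6 had mean values below 1 FPKM, the deposited measure of fragments scaled to exon length and library size. In these bulk samples, fewer cells of a type and less RNA per cell cannot be told apart.

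The 250 bases before the annotated start are shown for 4 genes, in lower case, 5′ to 3′ on the gene's own strand, with motif matches in capitals. Ankrd1 and Fhl2 are shown because they had the lowest p values of the 9 genes against blank hearts, in opposite directions, and Actn2 and Ldb3 because they gave the only Pearson correlation between members past the threshold, one that was lost in 9 of 18 fits with a heart left out. The sequences are from RefSeq on the mouse build mm10, all from minus-strand genes, at chr19:36119845-36120094 for Ankrd1, chr1:43163962-43164211 for Fhl2, chr13:12340733-12340982 for Actn2 and chr14:34588682-34588931 for Ldb3.
Ankrd1: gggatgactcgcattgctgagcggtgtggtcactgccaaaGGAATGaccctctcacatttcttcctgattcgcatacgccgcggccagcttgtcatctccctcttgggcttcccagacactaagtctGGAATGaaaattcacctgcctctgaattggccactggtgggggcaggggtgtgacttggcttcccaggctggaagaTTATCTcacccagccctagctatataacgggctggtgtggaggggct
Fhl2: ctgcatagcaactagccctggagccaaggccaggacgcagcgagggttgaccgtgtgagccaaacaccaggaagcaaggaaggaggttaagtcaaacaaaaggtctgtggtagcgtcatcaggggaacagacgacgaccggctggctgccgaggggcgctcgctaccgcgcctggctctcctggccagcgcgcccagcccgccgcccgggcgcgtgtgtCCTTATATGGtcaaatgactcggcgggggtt
Actn2: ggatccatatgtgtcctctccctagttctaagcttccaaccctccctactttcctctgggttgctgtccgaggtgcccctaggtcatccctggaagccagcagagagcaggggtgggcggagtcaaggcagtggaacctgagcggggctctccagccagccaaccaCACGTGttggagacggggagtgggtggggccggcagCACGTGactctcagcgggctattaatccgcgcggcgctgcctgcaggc
Ldb3: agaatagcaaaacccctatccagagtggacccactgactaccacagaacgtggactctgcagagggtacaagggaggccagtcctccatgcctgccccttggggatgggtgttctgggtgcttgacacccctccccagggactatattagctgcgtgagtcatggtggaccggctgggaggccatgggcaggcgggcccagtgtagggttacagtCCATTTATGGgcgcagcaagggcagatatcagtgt
Each window was searched on both strands for 6 motifs. In the Ankrd1 window M-CAT, the binding site of TEAD factors (searched as CATTCC), was found on the opposite strand 210 and 123 bases before the start. A GATA site, searched as AGATAA, lay on the opposite strand 47 bases before the start of Ankrd1. The Fhl2 window held a CArG box, the binding site of serum response factor, 31 bases before the start, and the Ldb3 window held another 35 bases before it. In the Actn2 window the E-box, searched as CACGTG, occurred at 84 and 48 bases. The TATA box was searched as TATAAA and was not in any of these windows, and the CArG box and the MEF2 site were searched by their consensus. None of the matches overlapped another. Among 32536 RefSeq windows of the same length, 12.6% held M-CAT, 9.97% the GATA letters, 6.04% the E-box, 12.3% the TATA box, 1.48% a CArG box and 2.89% a MEF2 site. Windows starting at the deposited gene start were also found for Ttn and Myoz2, each with 1 MEF2 site, and for Csrp3, with none of these motifs, which makes 7 of the 9 genes. A match is a run of letters and was not tested as a binding site, and none of these windows was assayed here.

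Between PLCβ1b and blank hearts, none of the 9 genes passed the FDR threshold of 0.1, at which 12 of 12281 genes (0.0977%) were called by edgeR's quasi-likelihood test with Benjamini-Hochberg adjustment. DESeq2 and limma on log2 FPKM also called none of the 9. At an unadjusted p below 0.05, which 7.41% of all genes reached, Ankrd1 was on the higher side and Fhl2 on the lower. The same test called 17 of 12281 genes (0.138%) between PLCβ1a and blank hearts and 0 of 12281 (0%) between PLCβ1b and PLCβ1a hearts, and again none of the 9. In these comparisons unadjusted p fell below 0.05 for 8.58% and 4.42% of all genes, for Fhl2 alone among the 9 in the former and for none of them in the latter. No member had groups without overlap in CPM in any comparison, against 0.48%, 0.594% and 0.179% of all genes in the same order. The FDR values of the 9 genes ran from 0.362 to 0.999 for PLCβ1b against blank, from 0.557 to 0.942 for PLCβ1a against blank, and were 0.9999 for PLCβ1b against PLCβ1a. An exact permutation test over hearts (two-sided, over every arrangement of 12 hearts, smallest possible p of 0.0022) gave adjusted p values of at least 0.584 on log2 CPM and of at least 0.234 on log2 FPKM, over the 27 tests of 9 genes in 3 comparisons.

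**Figure D1:**
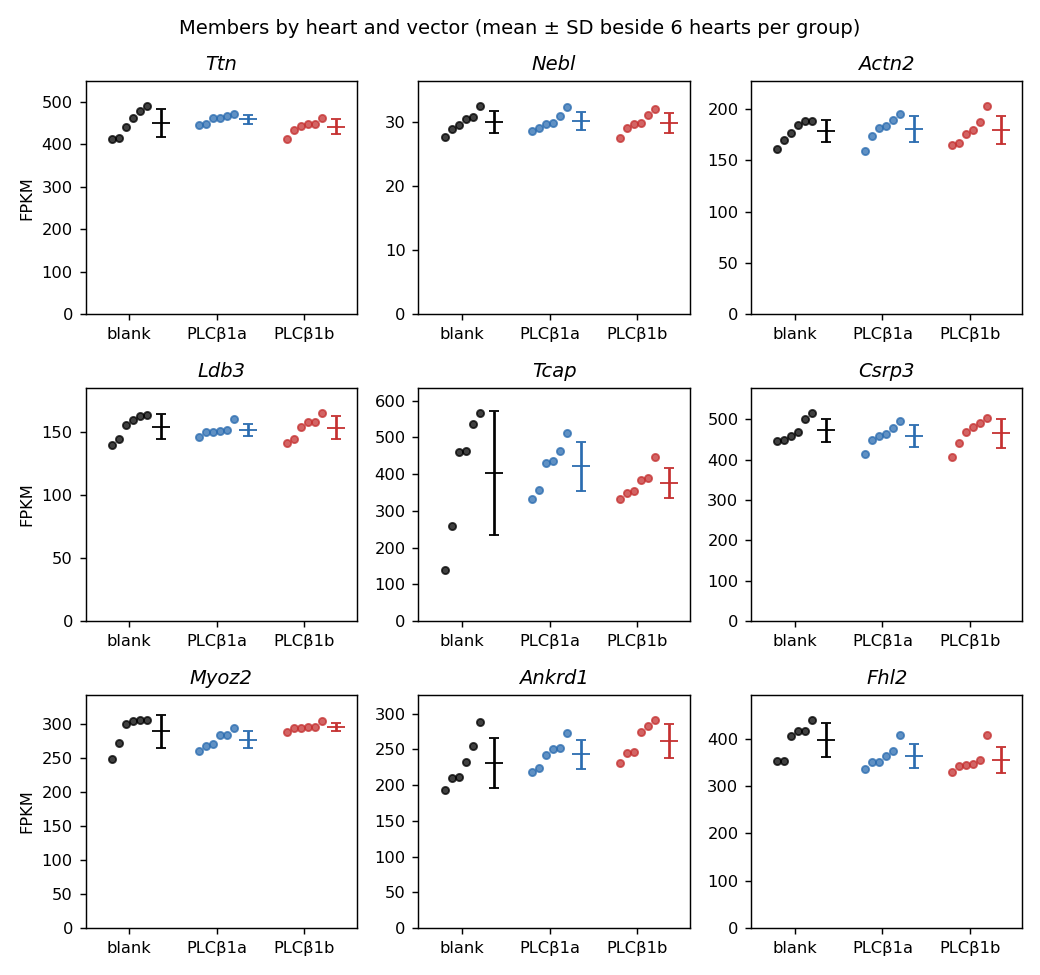
FPKM (y axis, from 0, a separate scale for each gene) of the 9 genes in each heart, by vector (x axis); points are hearts, ordered by value within a group, and the bar beside them is the mean ± SD of 6 hearts. The 3 groups overlapped for every gene, and Tcap in blank hearts ran from 138 to 567 FPKM.

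Ankrd1, which encodes a cardiac ankyrin repeat protein that binds titin (chr19:36111965-36119844), gave the largest positive difference. Its level was 193, 222 and 288 FPKM (lowest, median and highest of 6 hearts) in blank hearts. In PLCβ1a hearts it was 218, 247 and 273 FPKM. In PLCβ1b hearts it was 232, 260 and 292 FPKM. On the CPM scale, 3 of the 6 PLCβ1b hearts lay above every blank heart and 5 above the blank median, and the groups overlapped. In FPKM only the PLCβ1b heart of mouse 8, at 292, lay above the highest blank heart, at 288. The difference from blank was 14.7% (95% interval 1.1 to 30.2%), or 0.20 ± 0.09 (SE) on the log2 scale, with a p of 0.035 and an FDR of 0.641 (edgeR). The exact permutation test gave a p of 0.048 on log2 CPM and of 0.108 on log2 FPKM. In PLCβ1a hearts Ankrd1 differed from blank by 6.93% (interval -5.78 to 21.4%).

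Fhl2, which encodes a LIM-only protein of the Z-disc and I-band (chr1:43123074-43163961), gave the lowest p of the 9 genes. Its level was 354, 412 and 441 FPKM in blank hearts, as lowest, median and highest. It was 335, 358 and 408 FPKM in PLCβ1a hearts. It was 330, 346 and 409 FPKM in PLCβ1b hearts. On the CPM scale, 5 of the 6 PLCβ1b hearts lay below every blank heart, and the other, from mouse 6, lay among them. In FPKM the PLCβ1b heart of mouse 4, at 355, also lay within the blank range. Against blank, Fhl2 differed by -9.56% in PLCβ1b hearts (interval -15.2 to -3.52%, p of 0.0033, FDR 0.362, edgeR), with an exact permutation p of 0.035. In PLCβ1a hearts it differed by -6.51% (interval -12.4 to -0.270%, p of 0.042, FDR 0.557, edgeR), with 2 of 6 hearts below every blank heart in CPM. The PLCβ1b and PLCβ1a hearts, compared directly, differed by -3.26% (interval -9.31 to 3.20%). The summed level of 6 endothelial markers ran from 274 to 330 CPM in blank, 281 to 311 in PLCβ1a and 282 to 326 in PLCβ1b hearts, and its correlation with Fhl2 across hearts had an r of -0.71 (adjusted permutation p of 0.054). The part of those cells in the Fhl2 values was not tested.

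**Figure D2:**
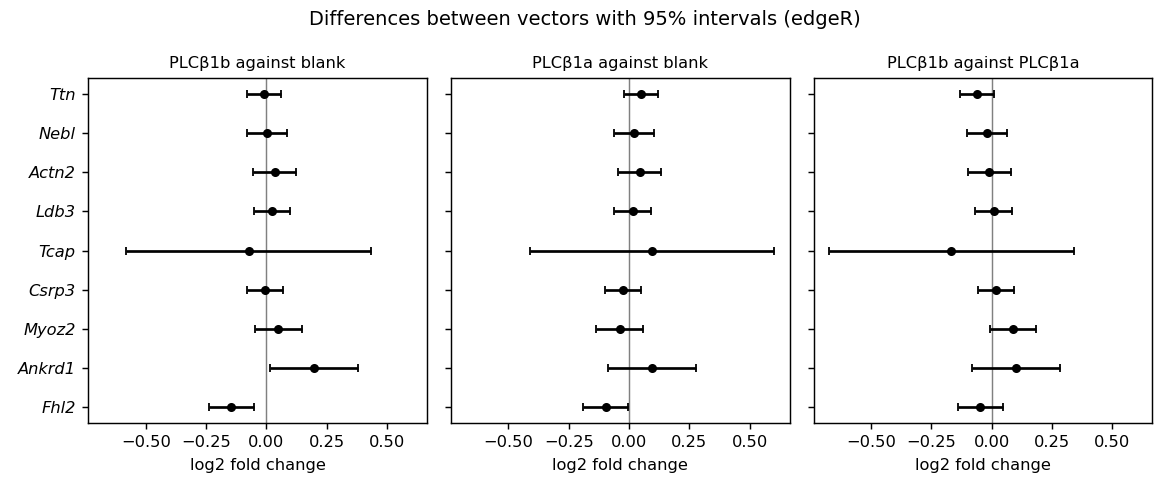
Log2 fold change (x axis) of the 9 genes in the 3 comparisons of vectors, with 95% intervals from edgeR's quasi-likelihood fit. Only the intervals of Ankrd1 and Fhl2 in PLCβ1b hearts and of Fhl2 in PLCβ1a hearts leave out 0, and those of Tcap are the widest.

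Titin itself (Ttn, chr2:76703984-76982547, 314 merged exons in the deposited annotation) was the most precisely measured member, with 419179 to 825498 counts per heart. Its level was 450 ± 32.5 FPKM (SD, n = 6 here and below) with blank virus, 459 ± 10.9 with PLCβ1a and 442 ± 17.3 with PLCβ1b. PLCβ1b hearts differed from blank by -0.763% (interval -5.55 to 4.26%), and PLCβ1a hearts by 3.5% (interval -1.49 to 8.74%). All 6 PLCβ1b hearts lay below the PLCβ1a median in CPM, but the difference between those groups, -4.12% (interval -8.74 to 0.735%), did not pass the test.

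Actn2 (chr13:12269427-12340732) encodes the α-actinin of heart muscle and had between 159 and 203 FPKM over the 18 hearts. It differed by 2.47% (interval -3.65 to 8.97%) in PLCβ1b and by 3.15% (interval -3.01 to 9.70%) in PLCβ1a hearts. Ldb3 (chr14:34526699-34588681), which encodes the PDZ and LIM protein Cypher, ranged from 140 to 165 FPKM and differed by 1.63% (interval -3.60 to 7.14%) and 1.06% (interval -4.15 to 6.54%). Myoz2 (chr3:123006206-123034987), which encodes a calcineurin-binding protein called calsarcin, stood at 289 ± 24.0 FPKM with blank virus, 276 ± 12.5 with PLCβ1a and 295 ± 5.58 with PLCβ1b. Its PLCβ1b hearts lay between 288 and 305 FPKM, and 3 of them lay above every PLCβ1a heart in CPM. PLCβ1b hearts exceeded PLCβ1a hearts by 6.30% (interval -0.607 to 13.7%, p of 0.073, edgeR). Its exact permutation p was 0.071 on log2 CPM and 0.0087 on log2 FPKM, the latter 0.234 after adjustment over 27 tests.

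Csrp3 (chr7:48830398-48848051), for muscle LIM protein, ranged from 406 to 516 FPKM and differed from blank by -0.460% (interval -5.50 to 4.85%) in PLCβ1b and by -1.63% (interval -6.61 to 3.62%) in PLCβ1a hearts. Nebl (chr2:17346734-17731068), for the actin-binding protein nebulette, ranged from 27.4 to 32.4 FPKM and differed by 0.067% (interval -5.55 to 6.01%) and 1.36% (interval -4.33 to 7.39%). All values of Nebl, its differences and correlations included, rest on a short gene model and cannot be read as levels of full-length nebulette. The deposited annotation gives Nebl 1 transcript with 7 exons and 2980 exonic bases, encoding 270 residues. The protein-coding transcripts of GENCODE M21 cover 32 exons, of which 25 have no overlap with the deposited model. They cover 10344 bases, of which 28.6% lie in the deposited model. For the other 8 genes this share ran from 82.4 to 100%, with Fhl2 lowest.

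Tcap (chr11:98383811-98384953, 2 exons) varied most, and its intervals were correspondingly wide. In blank hearts its counts were scaled to 98.7 CPM in mouse 30, 186 in mouse 26, 298 in mouse 34, 328 in mouse 32, 353 in mouse 33 and 373 in mouse 36. In PLCβ1a hearts it ran from 237 to 341 CPM with a median of 301. In PLCβ1b hearts it ran from 231 to 305 CPM with a median of 254. The blank group thus held both the lowest and the highest of all 18 hearts, and the ranges of both PLC groups lay inside it. All 6 PLCβ1b hearts were below the blank median, yet the difference of -4.90% had an interval from -33.1 to 35.2%, and that of PLCβ1a hearts, 6.79%, one from -24.9 to 51.8%. Without blank heart 30 the latter difference turned from 0.09 to -0.08 on the log2 scale.

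The wider families were described with lists of other genes. The median absolute log2 difference of the 9 genes from blank in PLCβ1b hearts was 0.035, against 0.071 over all genes tested, and their median signed difference was 0.00096, against -0.00089. In PLCβ1a hearts the absolute medians were 0.045 and 0.073, and between PLCβ1b and PLCβ1a hearts 0.048 and 0.061. All genes tested include many less abundant than the 9, and no median was taken over genes of like abundance. The median coefficient of variation within groups was 11% over all genes tested and 5.07% over the 433 at least as abundant as Nebl. No gene was called by edgeR in any of the 3 comparisons among 17 other titin-associated and M-band genes (17 tested), 30 other Z-disc genes (28 tested) and 29 genes of stretch sensing and cell adhesion (28 tested). The genes not tested were Myoz1, Myoz3 and Ankrd2, which lay under the count minimum. DESeq2 and limma on FPKM called none of the list genes either.

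**Figure D3:**
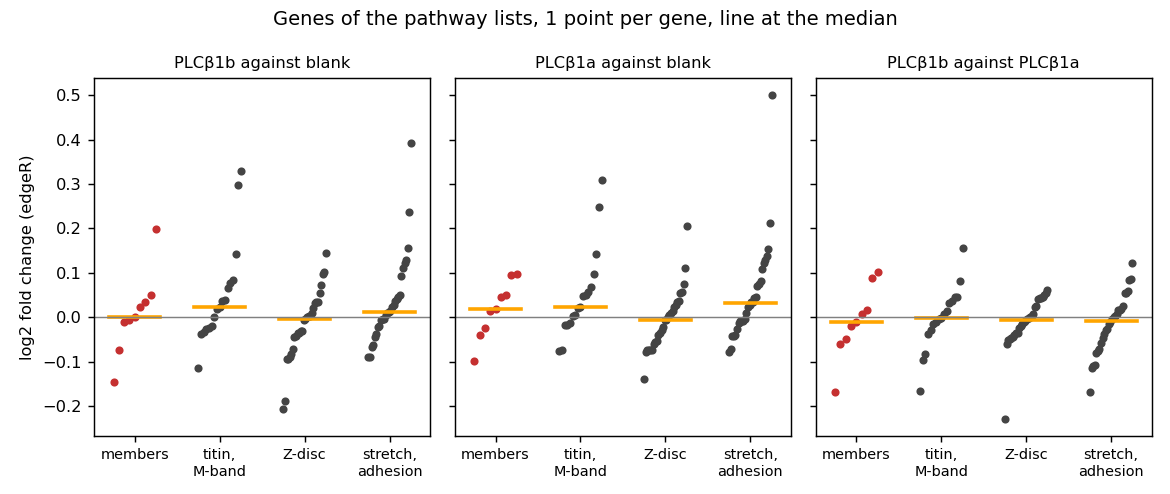
Log2 fold change (y axis, edgeR) of the 9 genes and of the tested genes of 3 lists (x axis) in the 3 comparisons of vectors; each point is a gene and each bar a list's median. Medians lie close to 0 in every list, and the highest points are Cyr61 at 0.39 in PLCβ1b and 0.50 in PLCβ1a hearts.

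Of the titin and M-band genes, 1 was higher and 1 lower of 17 in PLCβ1b than in blank hearts at an unadjusted p below 0.05, which 7.41% of all genes reached, and none in the other comparisons. The higher was Myom2, for an M-band myomesin, with 109 ± 15.1 FPKM against 87.3 ± 12.7 in blank hearts (0.33 on the log2 scale, FDR 0.564, edgeR). In PLCβ1a hearts Myom2 had 103 ± 7.54 FPKM (0.25, FDR 0.597). The lower was Trim55, for a muscle RING-finger ubiquitin ligase, at 11.9 ± 0.894 against 13.1 ± 0.669 FPKM (-0.11, FDR 0.666). Alpk3 had the lowest p between the PLC groups, 0.074, at -0.08. The most abundant of this list were Mybpc3, for cardiac myosin-binding protein C, with 363 ± 31.1 FPKM in blank hearts, Myom1 with 173 ± 10.2 and Lmod2, for an actin nucleator, with 104 ± 8.37.

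Of the 28 Z-disc genes, 1 reached an unadjusted p below 0.05 in each comparison with blank, where 7.41% (PLCβ1b) and 8.58% (PLCβ1a) of all genes did. Smpx, for a small muscle protein, was lower in PLCβ1b than in blank hearts at an unadjusted p of 0.042, with 97.7 ± 1.5 against 105 ± 4.55 FPKM (-0.09, FDR 0.659, edgeR). Nrap, for a nebulin-related anchoring protein, was higher in PLCβ1a than in blank hearts at a p of 0.041, with 73.8 ± 4.81 against 68.9 ± 4.61 FPKM (0.11, FDR 0.553, edgeR). No other gene of this list reached that level, and Ppp3ca, a catalytic subunit of calcineurin, had the lowest p between the PLC groups, 0.254. The most abundant were Cryab, a small heat shock protein, with 403 ± 41.8 FPKM in blank hearts, Des, for desmin, with 250 ± 19.7 and Pdlim5 with 131 ± 10.1.

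In the stretch-sensing and adhesion list, 5 genes were higher and 1 lower of 28 at that level in PLCβ1b than in blank hearts, against 7.41% of all genes. In PLCβ1a hearts 2 were higher, against 8.58% of all genes, and between the PLC groups there was none, against 4.42%. In PLCβ1b hearts the higher genes were Ctgf, a target of YAP signalling, Piezo1, for a stretch-activated channel, Srf and Mkl2, for serum response factor and a coactivator of it, and Yap1. Lims1, for an adaptor of integrin adhesions, was the lower. Ctgf stood at 13 ± 1.66 FPKM with PLCβ1b, 12.8 ± 1.64 with PLCβ1a and 11.3 ± 0.735 with blank virus (0.24 and 0.21 on the log2 scale, FDR 0.542 and 0.483, edgeR). Piezo1 differed by 0.16 and 0.15 (FDR 0.609 and 0.518). Srf differed by 0.13, Mkl2 by 0.12, Yap1 by 0.09 and Lims1 by -0.09 in PLCβ1b hearts, with FDR values from 0.641 to 0.652. These comparisons share the blank hearts. Cav3, for muscle caveolin, had the lowest p between the PLC groups, 0.067, at 0.12. The most abundant genes of the list, Ankrd23, Itgb1bp2 and Itgb1, had 64.7 ± 14.2, 53.2 ± 5.91 and 50.6 ± 2.55 FPKM in blank hearts and differed from them by 0.09 or less in size on the log2 scale in PLCβ1b hearts.

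Per length, the order of the 9 genes was the same in the 3 groups. Over 18 hearts the mean levels were 466 ± 29.6 FPKM for Csrp3, 450 ± 22.1 for Ttn, 401 ± 103 for Tcap, 373 ± 34.1 for Fhl2, 287 ± 17.0 for Myoz2, 246 ± 28.6 for Ankrd1, 180 ± 11.8 for Actn2, 153 ± 7.79 for Ldb3 and 29.9 ± 1.46 for Nebl. The first 4 were not separated, since Csrp3 exceeded Ttn in 13 of 18 hearts, Ttn exceeded Tcap in 12 and Tcap exceeded Fhl2 in 14. Every later neighbour was ordered the same way in 18 of 18 hearts, although the ranges of Myoz2 and Ankrd1, of Ankrd1 and Actn2 and of Actn2 and Ldb3 overlapped between hearts. The order at the top depended on the measure. With counts divided by the merged exon length, Fhl2 came first, Ttn second, then Csrp3 and then Tcap, and the other 5 kept their places. The level and place of Nebl hold for its short deposited model, with 28.6% of the GENCODE M21 exonic bases, and not for all its transcripts.

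Apart from Tcap, the 9 genes varied less between hearts of the same vector than the median gene tested. The coefficient of variation of CPM within groups was 3.78% for Ttn, 3.89% for Csrp3, 4.16% for Ldb3, 4.54% for Nebl, 5.93% for Actn2, 6.48% for Fhl2, 6.60% for Myoz2, 10.4% for Ankrd1 and 24.8% for Tcap. The median over all genes tested was 11%, and over the 433 genes at least as abundant as Nebl it was 5.07%. Tcap lay at percentile 99.1 of those 433 genes and Ankrd1 at percentile 93.3. The highest heart exceeded the lowest 3.78-fold for Tcap, 1.43-fold for Ankrd1 and 1.14-fold for Ttn.

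**Figure D4:**
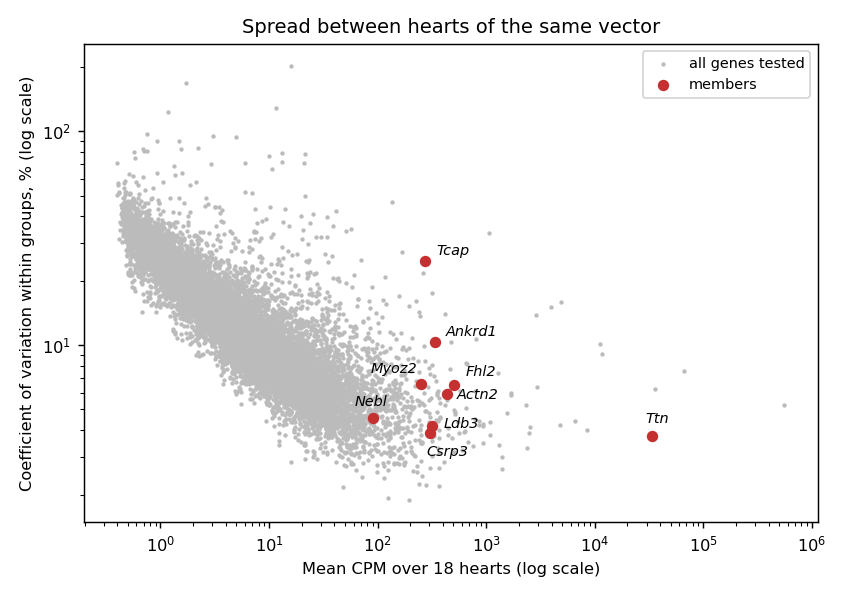
Coefficient of variation within groups (y axis, %, log scale) against mean CPM (x axis, log scale) for all 12281 genes tested, with the 9 genes in red. Tcap, at 24.8%, lies above nearly all genes of like abundance, and Ttn, Csrp3 and Ldb3 lie between 3.78 and 4.16%.

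Across the 18 hearts, 36 pairs of the 9 genes were compared in log2 CPM, with permutation p values adjusted over the 36. Actn2 and Ldb3, both Z-disc components, had the only Pearson correlation past an adjusted p of 0.05, an r of 0.69 (adjusted p of 0.049) and a rho of 0.61 (adjusted p of 0.083). Without the 2 hearts farthest from the median r was 0.48, and it was 0.44 within blank, 0.94 within PLCβ1a and 0.33 within PLCβ1b hearts, so it rested in part on those 2 hearts and was strongest within PLCβ1a. The call was lost in 9 of 18 fits with a heart left out, where r went down to 0.57. Tcap and Fhl2 gave an r of 0.48 (adjusted p of 0.141) but a rho of 0.75 (adjusted p of 0.019). Without the 2 hearts farthest from the median their r rose to 0.86, and it was 0.82, 0.85 and 0.83 within blank, PLCβ1a and PLCβ1b hearts. The 3 most negative values did not pass. Tcap and Myoz2 gave an r of -0.60 (adjusted p of 0.069), which was -0.78, 0.04 and -0.47 within blank, PLCβ1b and PLCβ1a hearts and -0.39 in FPKM. Actn2 and Fhl2 gave an r of -0.57 (adjusted p of 0.104), from -0.49 to -0.71 within the groups and -0.16 in FPKM. Ankrd1 and Fhl2 gave an r of -0.56 (adjusted p of 0.104), which was -0.92 within PLCβ1b hearts, -0.17 and -0.18 within the others and -0.30 in FPKM.

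The stress genes Nppa, Nppb, Acta1 and Myh7, which rise in hypertrophy, were compared with the 9 genes in 36 relations. Tcap and Nppb, for natriuretic peptide B, gave an r of -0.81 (permutation p adjusted over the 36 of 0.0018) and a rho of -0.67 (adjusted p of 0.055). Without the 2 hearts farthest from the median in Tcap, r was -0.64, and within blank, PLCβ1a and PLCβ1b hearts it was -0.87, -0.41 and -0.73. The hearts of blank mice 26 and 30, lowest in Tcap, had the highest Nppb, at 75.3 and 69.3 CPM, against 23.3 to 50.7 CPM in the other 16 hearts. Nebl and Myh7 gave an r of 0.69 (adjusted p of 0.024) and a rho of 0.67 (adjusted p of 0.055) in CPM, but an r of 0.32 in FPKM. Among 90 relations of the 9 genes with library measures and marker sums, Nebl and the summed leukocyte markers gave an r of -0.80 and a rho of -0.81 (both with an adjusted p of 0.0063). With Nebl in FPKM and the marker sum still in CPM, r was -0.35. By r, no other relation with stress genes, library measures or marker sums passed, and none of Ttn, Ankrd1 or Csrp3 did.

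For each gene, the gene outside the 9 with the most similar log2 CPM over the 18 hearts was sought among 12272. Tcap stood out by the size of its value, an r of 0.97 with Dbp, which encodes a transcription factor under direct control of the circadian clock. For the other 8 the highest r ran from 0.79 to 0.87. They were Efcab5 for Ttn, Ndufa13 for Nebl, Naca for Actn2, Nisch for Ldb3, Exoc3l4 for Csrp3, Slain2 for Myoz2, Pcbp4 for Ankrd1 and Ndufa8 for Fhl2. These values are the largest of many and are given as a description.

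The relation of Tcap with Dbp led to a list of 16 clock genes, chosen after this value was seen, of which 15 were tested. No p is given for these. In blank hearts Dbp had 5.48 CPM in mouse 30, 17.1 in mouse 26, 29.7 in mouse 34, 34.7 in mouse 32, 36.3 in mouse 33 and 40.8 in mouse 36, the same order as Tcap. Without the 2 hearts farthest from the median in Tcap, r was 0.87, and it was 0.996, 0.97 and 0.75 within blank, PLCβ1a and PLCβ1b hearts. Tef and Hlf, relatives of Dbp, gave r of 0.87 and 0.87, Per3 of 0.89, Nr1d2 of 0.87 and Bhlhe41 of 0.83. Arntl, for the clock activator BMAL1, which peaks in the opposite phase, gave -0.88, with 13.3 CPM in blank heart 30 against at most 5.27 in the others. In all, 9 of the 15 clock genes, Dbp included, had an r beyond 0.7 in size with Tcap, 1 with Fhl2 and none with the other 7 genes. The 1 with Fhl2 was Npas2 (r of -0.72), a scarce transcript at 0.40 to 2.08 CPM. The share of all genes tested beyond 0.7 was not computed. Without the same 2 hearts, Tef, Hlf, Nr1d2, Per3, Bhlhe41 and Arntl gave 0.80, 0.86, 0.75, 0.71, 0.70 and -0.73 with Tcap. Per1 and Clock, also among the 9, went from 0.76 to 0.21 and from -0.72 to -0.42. Within PLCβ1b hearts Tcap gave 0.71 with Tef, 0.72 with Hlf and -0.74 with Arntl. There it gave 0.54 with Nr1d2, 0.52 with Per1, 0.48 with Per3, 0.48 with Bhlhe41 and -0.21 with Clock. Within PLCβ1a hearts Tcap gave -0.48 with Per1. Fhl2 gave an r of 0.42 with Dbp and 0.60 with Bhlhe41 over all hearts, but higher values within the groups. Within blank, PLCβ1a and PLCβ1b hearts these were 0.80, 0.81 and 0.65 with Dbp and 0.84, 0.96 and 0.61 with Bhlhe41. With Per1 they were 0.74, -0.78 and 0.42. The time of day at which each heart was taken is not given in the sources used here. The part of the clock in the spread of Tcap or Fhl2 was not tested.

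**Figure D5:**
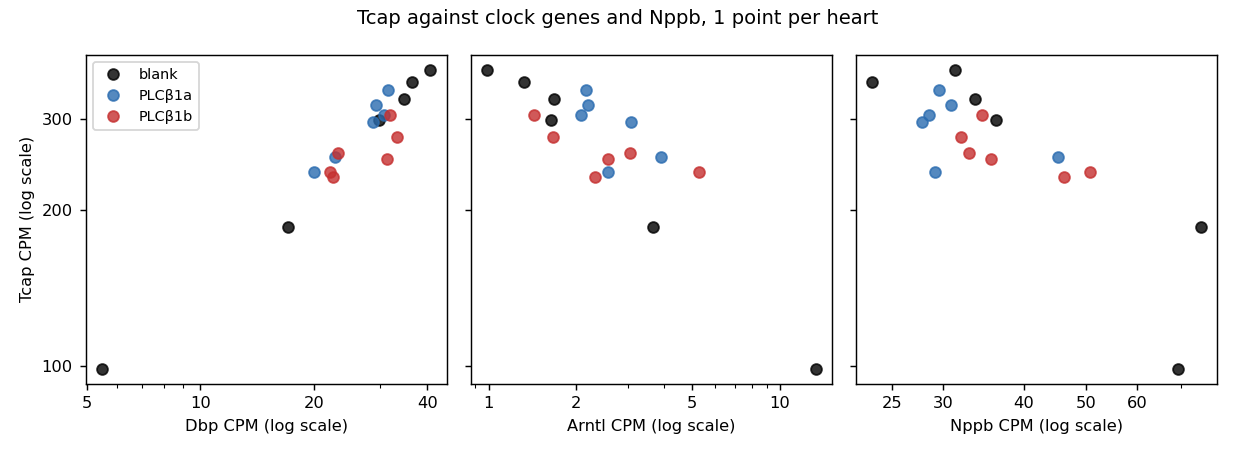
Tcap (y axis, CPM, log scale) against Dbp, Arntl and Nppb (x axes, CPM, log scales), with 1 point for each of 18 hearts, coloured by vector. Tcap rises with Dbp and falls with Arntl, and blank heart 30, at 98.7 CPM of Tcap, lies at the end of both.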

How the data were processed

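Ventricles of 18 mice, 6 per vector, were profiled by strand-specific, paired-end sequencing of rRNA-depleted total RNA. The submitters' processing notes name TopHat2 2.0.10, Bowtie2, HTSeq, Cufflinks 2.1, DESeq and edgeR, and the build mm10. The authors deposited raw counts per gene (HTSeq), with no normalization, and FPKM, which are scaled to exon length and library size, together with the gene annotation used. The program behind the deposited FPKM is not given for that table.

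After TMM scaling, the counts went into edgeR 4.0.16 (R 4.3.3, robust quasi-likelihood) in 1 model of the 3 groups, on 12281 genes passing filterByExpr (minimum count 10), with Benjamini-Hochberg adjustment over all of them and a call at an FDR below 0.1. Intervals are 95%. CPM are TMM-scaled, and 2 was the prior count before logs were taken. Correlations used 100000 permutations. P values set a difference or a correlation against the variation between hearts. The alternatives were DESeq2 1.42.0, upper-quartile scaling, mitochondrial genes left out, no filter, limma 3.58.1 on log2(FPKM + 0.1) or log2(FPKM + 1) where mean FPKM reached 3, a fit of just the pair of groups, and each heart left out. edgeR without robust estimation was added after seeing the data.

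The 9 genes and the lists were chosen with earlier results of these data known. Named besides the 9 are Plcb1, 4 stress genes, marker genes, per list each gene called, that with the lowest p in each comparison and the 3 with the highest mean FPKM, and the gene most like each of the 9. List genes at an unadjusted p below 0.05 and Cyr61 were named after their values were seen. Atrial, fibroblast, smooth muscle and erythrocyte markers were also summed: their ranges over the 18 hearts were 26.5 to 63.5, 392 to 467, 101 to 133 and 5.35 to 15.6 CPM, the last from Alas2 alone, since the globin genes were at 0 in the counts but not in FPKM. Leukocyte markers summed to 42.9 to 56.9 CPM. Mouse numbers are not shared between groups, so hearts were not paired. Blank mice carry numbers from 26 to 36 and PLC mice from 4 to 21, and the library labels run in blocks by vector. Vector was thus aligned with that order, and an effect of the order was not tested.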

Additional observations from a re-analysis of the deposited data

Results flagged for a closer look

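In 27 groups of 6 hearts (9 genes, 3 vectors), the highest or lowest heart stood apart from the rest in 2, where chance alone gives about 5% of such groups. Fhl2 in PLCβ1b hearts had its highest value, 556 CPM, in mouse 6, with the next heart at 487 CPM, a gap of 0.732 of the whole range against a critical value of 0.625. Without that heart the difference of Fhl2 from blank was -0.19 on the log2 scale, against -0.14 with it, with an FDR of 0.135 against 0.362 (edgeR). Nebl in PLCβ1b hearts had its lowest value, 81.4 CPM, in mouse 8, with the next heart at 90.5 CPM, a gap of 0.635 of the range.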

How the results depend on the processing

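No member and, by every alternative run on all 18 hearts, no gene of the pathway lists was called. Leaving out 1 heart at a time kept the members called at 0, and the list genes called between PLCβ1b and blank hearts ran from 0 to 1. The 1 was Cyr61 without PLCβ1a heart 7 (FDR 0.0454 against 0.772 with it, edgeR), named after its values were seen. Of the 27 differences of the 9 genes, 17 kept their direction under every alternative, among them those of Ankrd1, Fhl2 and Myoz2. The other 10 changed sign under at least 1 alternative. Nebl between PLCβ1b and blank hearts was -0.00065 with DESeq2, -0.0028 without a filter, and -0.0055 and -0.0053 with limma on log2(FPKM + 0.1) and log2(FPKM + 1). With the same pair of limma fits Ldb3 was -0.0067 and -0.0067 in PLCβ1b and -0.025 and -0.025 in PLCβ1a against blank, and Tcap in PLCβ1b against blank was 0.038 and 0.038. With each heart left out, differences from blank in PLCβ1b hearts ran from -0.023 to 0.0047 for Ttn, -0.016 to 0.030 for Nebl, -0.25 to 0.039 for Tcap and -0.021 to 0.019 for Csrp3. In PLCβ1a against blank they ran from -0.00035 to 0.037 for Ldb3 and -0.078 to 0.21 for Tcap. Between PLCβ1b and PLCβ1a they ran from -0.036 to 0.010 for Nebl, -0.052 to 0.018 for Actn2 and -0.014 to 0.024 for Ldb3.

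Correlations past an adjusted p of 0.05 numbered 1 between members, 2 with stress genes and 1 with library measures. In FPKM these were 5, 1 and 6, with group means subtracted 4, 5 and 6, and without mitochondrial genes 1, 4 and 1. For library measures, the FPKM and mitochondrial alternatives changed only the values of the 9 genes, and marker sums stayed in CPM. With each heart left out they ran from 0 to 3, 1 to 3 and 0 to 4. Actn2 and Ldb3 passed in 9 of 18 such fits, with r from 0.57 to 0.76, and failed without blank hearts 32, 33 or 34, PLCβ1a hearts 9, 11, 13, 14 or 21, or PLCβ1b heart 16. Nebl and Myh7 failed without blank heart 33, PLCβ1a hearts 14 or 21, or PLCβ1b hearts 6 or 8 (r from 0.65 to 0.74), and Nebl and the leukocyte markers without PLCβ1b heart 8 (r of -0.74). Tcap and Nppb passed in all 18. The coefficient of variation of Csrp3 was 6.64% in FPKM. The cause of these changes was not tested. Over all genes, calls ran from 4 to 24 and from 4 to 29 for PLCβ1b and PLCβ1a against blank, and from 0 to 1 between them. Against blank, the fewest were with limma on FPKM and the most without a filter. With a heart left out they ran from 2 to 18, 3 to 19 and 0 to 1, lowest for PLCβ1b without blank heart 34 or PLCβ1b heart 17 and for PLCβ1a without blank heart 34 or PLCβ1a heart 11. No paired analysis was possible because the groups share no mouse numbers.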
